A study of Mus musculus with 6 samples.

Results

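The genes described here are 31 genes that mark endothelium throughout the body, taken from a table of 52459 gene symbols by symbol alone. All 31 were found in the count table, all 31 passed the filter on low counts, and none was at 0 in any library. The libraries are bulk RNA sequencing of total RNA from whole brains of C57BL/6 mouse embryos at E14.5. They comprise 3 Mfsd7c-/- knockout and 3 wild-type libraries. Mfsd7c, now named Flvcr2, encodes a membrane transporter expressed in brain endothelium, and its human counterpart is mutated in Fowler syndrome, a malformation of brain vessels. The labels give no litters, no deleted exons and no cell type in which the gene was removed, so a p-value here speaks for the spread among 6 samples and nothing wider. The question put to the genes was how evenly they differ between knockout and wild-type brains.

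Endothelial cells line all blood vessels and are held together by cadherin and immunoglobulin-family adhesion proteins. They carry heavily glycosylated sialomucins on the side facing the blood, and they control clotting and vessel tone through von Willebrand factor, the protein C receptors and nitric oxide synthase. Their shared identity is set by transcription factors of the ETS family, which bind DNA around a GGAA core, together with basic helix-loop-helix factors shared with blood precursors. In a whole brain such genes report on a minority cell type, and in bulk RNA a change in the number of endothelial cells and a change in RNA per cell cannot be told apart.

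Library totals ran from 43784619 to 50549673 counts. The targeted gene had 119, 129 and 130 counts in the knockout libraries, against 206, 291 and 259 in the wild-type libraries. On the log2 scale this is -0.96 (SE 0.147), with an adjusted p = 0.0271 in the quasi-likelihood test of edgeR. Several libraries stand apart for reasons the labels do not give. Krt5, an epidermal keratin, had 105, 3.72 and 20.4 CPM (counts scaled to a common library size) in knockout replicates 1, 2 and 3, against 79.9, 3.54 and 0.339 in wild-type replicates 1, 2 and 3. Hoxb3, a gene of hindbrain and spinal cord, had 0.208, 0.0394 and 0.250 CPM in the knockout libraries, against 0.676, 14.3 and 6.28 in the wild-type libraries. The embryonic share of all beta-globin was 2.80%, 23.6% and 5.03% in the knockout libraries, against 4.50%, 23.3% and 26.5% in the wild-type libraries. Wild-type replicate 2 was the 1 library with abundant Xist.

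The promoters of 7 of these genes are shown first, because the list includes ETS factors and the strings searched are of the kind that ETS factors bind. RefSeq promoter sequences on GRCm38.p6, from 250 bases before to 50 bases after the annotated start, were matched by symbol for 17 of the 31 genes. The first 5 below are all the genes with an entry that rose in knockout brains. Ushbp1 and Clec14a are set beside them as genes whose knockout means were below their wild-type means. Each is written 5′ to 3′ on the strand of its gene, and capitals mark the ETS-type string AGGAAG or its complement CTTCCT.
Adgrl4, chr3:151437632-151437931, plus strand: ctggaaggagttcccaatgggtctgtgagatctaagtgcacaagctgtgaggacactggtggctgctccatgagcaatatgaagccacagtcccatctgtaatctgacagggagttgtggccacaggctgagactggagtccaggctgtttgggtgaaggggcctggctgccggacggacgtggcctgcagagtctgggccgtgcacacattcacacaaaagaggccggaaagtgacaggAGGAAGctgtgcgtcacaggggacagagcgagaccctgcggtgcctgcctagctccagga
Cd34, chr1:194938571-194938870, plus strand: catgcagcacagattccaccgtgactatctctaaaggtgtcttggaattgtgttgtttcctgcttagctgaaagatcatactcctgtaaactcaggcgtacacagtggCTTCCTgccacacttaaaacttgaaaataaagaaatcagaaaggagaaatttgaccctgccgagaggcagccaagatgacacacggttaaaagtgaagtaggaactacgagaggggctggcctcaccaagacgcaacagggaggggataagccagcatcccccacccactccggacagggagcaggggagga
Myct1, chr10:5593478-5593777, plus strand: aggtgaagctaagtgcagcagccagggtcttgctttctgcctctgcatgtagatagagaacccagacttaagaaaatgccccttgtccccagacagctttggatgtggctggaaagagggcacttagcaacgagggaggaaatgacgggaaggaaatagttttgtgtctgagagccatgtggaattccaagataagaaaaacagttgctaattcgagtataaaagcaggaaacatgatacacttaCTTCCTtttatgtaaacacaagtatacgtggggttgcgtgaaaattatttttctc
Emcn, chr3:137340828-137341127, plus strand: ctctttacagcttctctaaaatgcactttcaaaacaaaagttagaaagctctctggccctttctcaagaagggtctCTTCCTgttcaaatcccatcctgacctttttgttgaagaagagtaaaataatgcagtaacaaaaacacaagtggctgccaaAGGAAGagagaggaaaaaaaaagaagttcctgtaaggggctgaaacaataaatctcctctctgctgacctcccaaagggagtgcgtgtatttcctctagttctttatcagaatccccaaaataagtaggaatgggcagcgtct
Robo4, chr9:37401722-37402021, plus strand: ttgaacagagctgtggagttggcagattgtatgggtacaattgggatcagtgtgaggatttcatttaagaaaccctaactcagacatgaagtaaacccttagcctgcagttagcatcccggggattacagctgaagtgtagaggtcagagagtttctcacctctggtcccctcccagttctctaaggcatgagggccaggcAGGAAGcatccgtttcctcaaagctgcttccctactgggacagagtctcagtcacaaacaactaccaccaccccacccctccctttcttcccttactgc
Ushbp1, chr8:71395752-71396051, minus strand: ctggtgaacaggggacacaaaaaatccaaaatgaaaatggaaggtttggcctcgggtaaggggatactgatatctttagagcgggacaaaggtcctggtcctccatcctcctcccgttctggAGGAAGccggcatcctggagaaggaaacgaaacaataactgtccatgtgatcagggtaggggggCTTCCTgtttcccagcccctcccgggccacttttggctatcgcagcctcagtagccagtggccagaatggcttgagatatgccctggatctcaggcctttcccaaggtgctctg
Clec14a, chr12:58269209-58269508, minus strand: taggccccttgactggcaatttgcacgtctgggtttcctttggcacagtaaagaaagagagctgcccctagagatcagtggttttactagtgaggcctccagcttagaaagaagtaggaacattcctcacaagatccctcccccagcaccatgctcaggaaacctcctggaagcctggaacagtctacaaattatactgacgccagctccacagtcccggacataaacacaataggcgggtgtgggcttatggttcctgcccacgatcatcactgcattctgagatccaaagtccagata

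AGGAAG, read on both strands, occurred in 5 of the 5 promoters of genes that rose and in 5 of the 12 promoters of genes that did not pass the test. It occurred in 35.1% of the 27025 promoters of that length in the RefSeq table. Ushbp1, which had the lowest fold change of all 31, carried 2 copies, and Clec14a carried none. The bare core GGAA was in all 17 promoters and in 95.9% of all promoters. In all, 9 strings were searched, and AGGAAG is one of several nested versions of the core. CAGGAAG, which lies within the AGGAAG matches, was in 3 of the 5 and in 5 of the 12, against 13.0% of all promoters. The GATA string GATAAG was in 2 of the 5 and 1 of the 12, against 7.43% of all promoters. CCGGAAG was in 0 of the 5 and 1 of the 12, against 9.12% of all promoters. AGGAAGT was in 1 of the 5 and 1 of the 12, against 9.57%. ACAGGAAG was in 1 of the 5 and 2 of the 12, against 3.45%. ACCGGAAG and CAGGAAGT were in 0 of the 17, against 2.34% and 3.38% of all promoters. These are matches of letters, chosen with the expression values known, and no binding was measured.

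The 31 genes did not move evenly. In knockout brains 9 of the 31 rose, 0 fell and 22 did not pass the edgeR quasi-likelihood test at an adjusted p of 0.05, where the adjustment runs over all 19565 genes tested. Over all genes 0.624% rose and 0.0358% fell. The log2 fold changes ran from -0.83 to 1.66, with 21 above zero and 10 below. The 9 that rose were Adgrl4, Mmrn2, Myct1, Cd34, Vwf, Pecam1, Emcn, Robo4 and Ecscr. Of the 31 genes, 12 had an unadjusted p under 0.05, as did 8.09% of all genes tested.

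The median log2 fold change of the 31 genes was 0.15, against -0.01 over all genes tested. Their SD was 0.61 on the log2 scale, and their quartiles were -0.09 and 0.68. The median standard error of a single gene's log2 fold change was 0.122. All genes tested had an SD of 0.34, and the 13266 genes within the CPM range of the list had an SD of 0.31 with a median standard error of 0.124. The genes therefore differed from one another by several times the error of a single estimate.

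Which genes passed depended on the libraries included. With any one of knockout replicates 1 and 3 or wild-type replicates 2 and 3 left out, 4 rose in the edgeR test, and they were the same genes each time, namely Adgrl4, Mmrn2, Cd34 and Pecam1. Over all genes the shares that rose were then 0.24% and 0.189% without knockout replicates 1 and 3, and 0.165% and 0.2% without wild-type replicates 2 and 3. Without both wild-type libraries that carried Hox transcripts the same 4 rose, with 0.0774% over all genes. Without knockout replicate 2, 6 of the 31 rose and 0.535% of all genes did. Without wild-type replicate 1, 10 rose and 1 fell, while over all genes 1.16% rose and 0.773% fell. Without both libraries high in Krt5, knockout replicate 1 and wild-type replicate 1, the same 9 rose and Ushbp1 fell, and over all genes 1.34% rose and 0.977% fell. The members' counts thus moved with those of the whole table. The sizes of the changes stayed close, with a median log2 fold change of 0.12 to 0.20 and an SD of 0.59 to 0.64 when single libraries were left out.

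**Figure D1:**
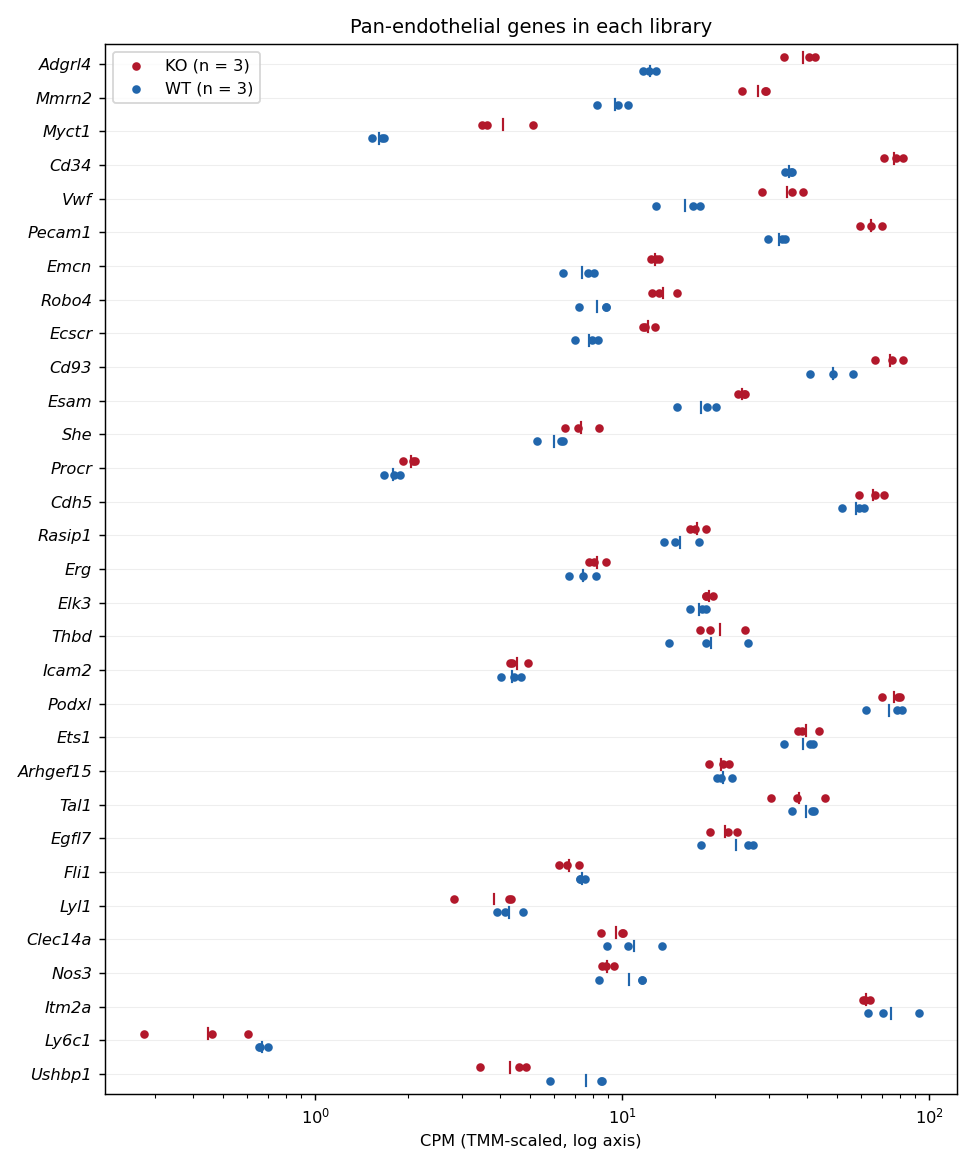
CPM of the 31 genes in each library on a log axis, ordered from the highest to the lowest log2 fold change, with knockout libraries in red above wild-type libraries in blue and a tick at each group mean (n = 3 each). The red and blue points are parted widest at the top, run together through the middle, and Ushbp1 at the bottom has all knockout points below all wild-type points.

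The knockout and wild-type values did not overlap for 17 genes, 14 of them higher in knockout and 3 lower. Over all genes tested 7.84% were higher without overlap and 6.58% were lower without overlap. The 14 were the 9 that rose together with Cd93, Esam, She, Procr and Elk3. The 3 lower were Ushbp1, Ly6c1 and Fli1. Absence of overlap did not mean a large difference, since Elk3 differed by a log2 fold change of 0.10 and Fli1 by -0.14.

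Summed over the list, the 31 genes made up 799.7, 795 and 868 CPM in knockout replicates 1, 2 and 3, against 615, 657 and 648 CPM in wild-type replicates 1, 2 and 3. All 3 knockout sums were above all 3 wild-type sums. The sum is carried by the abundant genes, among them Cd34, Cd93 and Pecam1, and the median gene moved far less.

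Junction and surface adhesion genes split. Pecam1, an immunoglobulin-family adhesion protein concentrated where endothelial cells touch, had 64.5, 59.3 and 70.2 CPM in knockout replicates 1, 2 and 3, against 29.9, 33.1 and 33.9 CPM in wild-type replicates 1, 2 and 3. Every knockout library held at least 1.75 times as much as every wild-type library, and the log2 fold change was 1.00 (SE 0.0829, adjusted p = 0.00119 in edgeR). Cdh5, which encodes VE-cadherin, the cadherin of the same junctions, had 58.8, 70.9 and 66.6 CPM in knockout and 51.9, 59.1 and 61.4 CPM in wild-type. Its lowest knockout value lay below 2 wild-type values, and its log2 fold change was 0.19 (SE 0.0889, adjusted p = 0.645 in edgeR).

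Esam, an adhesion molecule of endothelial tight junctions and platelets, had 23.7, 25.2 and 24.9 CPM in knockout, against 15.1, 20.1 and 18.8 CPM in wild-type. The groups were apart, but the log2 fold change of 0.45 (SE 0.108) missed the threshold (edgeR adjusted p = 0.201). Icam2, an adhesion molecule for leukocyte integrins, averaged 4.54 ± 0.349 CPM in knockout and 4.37 ± 0.334 CPM in wild-type (SD, n = 3 each). Within a library, the ratio of Pecam1 to Cdh5 CPM does not depend on library scaling. It was 1.10, 0.836 and 1.05 in knockout replicates 1, 2 and 3, against 0.576, 0.560 and 0.553 in wild-type replicates 1, 2 and 3. The pair was chosen after the values were seen, and the ratio is given without a test.

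Among the sialomucins, 2 of 3 rose. Cd34, found on endothelium and on blood stem cells, had 77.7, 70.9 and 81.8 CPM in knockout, against 35.7, 35.4 and 33.8 CPM in wild-type. Its log2 fold change of 1.14 had the smallest standard error of the 31 (SE 0.0695, adjusted p = 0.000375 in edgeR). Emcn, endomucin, typical of capillaries and veins, had 12.9, 12.4 and 13.1 CPM in knockout and 6.40, 8.07 and 7.70 CPM in wild-type, a log2 fold change of 0.79 (SE 0.115, adjusted p = 0.0215 in edgeR). Podxl, podocalyxin, a relative of Cd34 also made by podocytes and neurons, had 69.9, 79.9 and 79.2 CPM in knockout, against 62.2, 78.6 and 81.1 CPM in wild-type. Its groups overlapped throughout, with a log2 fold change of 0.05 (SE 0.103, adjusted p = 0.945 in edgeR). The ratio of Cd34 to Podxl was 1.11, 0.888 and 1.03 in the knockout libraries, against 0.573, 0.451 and 0.416 in the wild-type libraries. It sets a gene that rose over one that did not pass, and it is given without a test.

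Receptors and secreted proteins had the widest spread. Adgrl4, an adhesion G-protein-coupled receptor also called Eltd1, had the highest fold change of the list. Its values were 40.4, 33.6 and 42.2 CPM in knockout and 12.2, 12.9 and 11.6 CPM in wild-type, a 3.16-fold difference (log2 fold change 1.66, SE 0.0998, edgeR adjusted p = 0.000375). Robo4, an endothelial receptor of the Roundabout family, had 13.2, 12.5 and 15.1 CPM in knockout, against 7.21, 8.83 and 8.81 CPM in wild-type (log2 fold change 0.71, SE 0.123, edgeR adjusted p = 0.0467). Ecscr, a regulator of endothelial chemotaxis, had 12.8, 11.6 and 11.9 CPM in knockout, against 8.34, 7.95 and 7.00 CPM in wild-type (log2 fold change 0.64, SE 0.108, edgeR adjusted p = 0.0419). Robo4 and Ecscr lay closest to the threshold of the 9 and kept the call, as did Emcn, in 1 of the 6 fits that leave out 1 library.

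Mmrn2, Cd93 and Clec14a encode partners. Multimerin-2 is a matrix glycoprotein of vessels, and CD93 and CLEC14A are related C-type lectin-like receptors that bind it. Mmrn2 had 29.1, 24.5 and 29.3 CPM in knockout, against 8.27, 9.68 and 10.4 CPM in wild-type, a log2 fold change of 1.55 (SE 0.114, adjusted p = 0.000853 in edgeR). Cd93 had 75.5, 66.3 and 81.7 CPM in knockout and 40.9, 56.6 and 48.5 CPM in wild-type. The Cd93 groups were apart by less than Mmrn2, and its log2 fold change of 0.62 (SE 0.122) did not pass (edgeR adjusted p = 0.0915). Clec14a had 8.50, 10.1 and 9.95 CPM in knockout, against 8.90, 13.4 and 10.4 CPM in wild-type, a log2 fold change of -0.20 (SE 0.158, adjusted p = 0.805 in edgeR). The ligand and its receptors thus had different values in the same libraries. The ratio of Mmrn2 to Clec14a was 3.42, 2.44 and 2.95 in knockout, against 0.929, 0.721 and 0.998 in wild-type. The ratio of Mmrn2 to Cd93 was 0.385, 0.370 and 0.359 in knockout, against 0.202, 0.171 and 0.214 in wild-type. Both ratios set a gene that rose over one that did not pass, so some separation is built in, and they are given without a test.

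Egfl7, a secreted vessel protein whose gene carries the microRNA miR-126, had 19.3, 22.1 and 23.5 CPM in knockout, against 18.0, 26.7 and 25.6 CPM in wild-type. Its log2 fold change of -0.11 (SE 0.149, adjusted p = 0.891 in edgeR) came from libraries that overlapped, with wild-type replicate 1 the lowest of the 6 and wild-type replicates 2 and 3 the highest. Without both Hox-expressing wild-type libraries the value was 0.27. Itm2a, a small membrane protein of brain endothelium and of cartilage precursors, had 64.0, 61.6 and 60.6 CPM in knockout, against 92.2, 70.4 and 62.9 CPM in wild-type. The knockout libraries lay within a narrow band and wild-type replicate 1 stood high, with a log2 fold change of -0.28 (SE 0.126, adjusted p = 0.634 in edgeR). Ly6c1, a surface protein of brain endothelium and monocytes, was scarce, with 26, 14 and 22 counts in knockout and 31, 33 and 33 counts in wild-type. Its log2 fold change was -0.60 (SE 0.328, adjusted p = 0.702 in edgeR). Ly6c2 is a near-identical neighbour with at most 7 counts per library, so the split of reads between these genes is uncertain.

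Of the 4 genes of clotting and vessel tone, 1 rose. Vwf, which encodes von Willebrand factor, the carrier that tethers platelets, had 35.6, 28.4 and 38.8 CPM in knockout, against 12.9, 17.9 and 17.0 CPM in wild-type (log2 fold change 1.10, SE 0.150, edgeR adjusted p = 0.0166). Thbd, thrombomodulin, which turns thrombin toward protein C, had 17.9, 25.1 and 19.2 CPM in knockout, against 25.6, 14.2 and 18.7 CPM in wild-type. Its values were scattered in both groups, and the log2 fold change was 0.09 (SE 0.218, adjusted p = 0.948 in edgeR). Procr, the endothelial protein C receptor, averaged 2.04 ± 0.0964 CPM in knockout and 1.79 ± 0.108 CPM in wild-type (SD, n = 3 each). Nos3, endothelial nitric oxide synthase, had 8.55, 9.40 and 8.84 CPM in knockout, against 8.40, 11.6 and 11.6 CPM in wild-type (log2 fold change -0.24, SE 0.141, edgeR adjusted p = 0.722). The log2 fold change of Procr was 0.19 (SE 0.171).

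Of the cytoplasmic and remaining genes, Myct1 rose and Ushbp1 had the lowest log2 fold change of the list. Myct1, a membrane protein gene of endothelium, had 5.12, 3.49 and 3.61 CPM in knockout, against 1.64, 1.53 and 1.67 CPM in wild-type (log2 fold change 1.33, SE 0.198, edgeR adjusted p = 0.0244). Ushbp1, named for a protein that binds harmonin, had 3.43, 4.85 and 4.59 CPM in knockout, against 5.81, 8.59 and 8.49 CPM in wild-type. All knockout values were below all wild-type values, with a log2 fold change of -0.83 (SE 0.196) that did not pass in edgeR (adjusted p = 0.186). It passed in 5 of 15 alternative fits, among them the fit without wild-type replicate 1 (edgeR adjusted p = 0.0161). In the authors' deposited table, made with DESeq2, its adjusted p was 0.00467. She, an SH2-domain adaptor, had 6.49, 7.19 and 8.36 CPM in knockout and 5.27, 6.30 and 6.40 CPM in wild-type (log2 fold change 0.29, SE 0.141, edgeR adjusted p = 0.652). Rasip1, a Rap1 effector needed for vessel lumens in the mouse, had 18.7, 16.6 and 17.2 CPM in knockout, against 17.7, 13.7 and 14.9 CPM in wild-type (log2 fold change 0.18, SE 0.111, edgeR adjusted p = 0.729). Arhgef15, a guanine nucleotide exchange factor, had 21.3, 19.2 and 22.3 CPM in knockout, against 22.7, 20.3 and 20.9 CPM in wild-type (log2 fold change -0.03, SE 0.0865, edgeR adjusted p = 0.963).

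**Figure D2:**
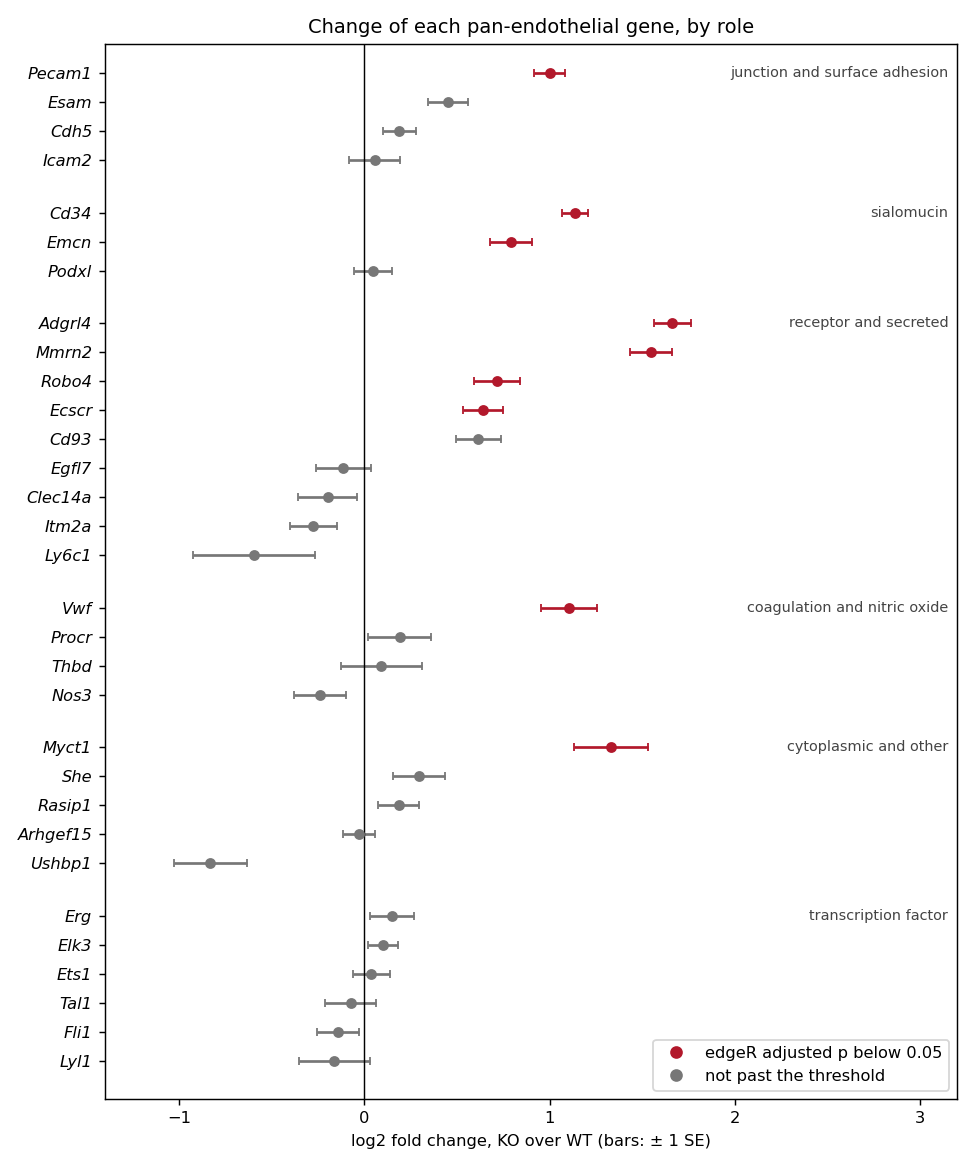
Log2 fold change of each gene, knockout over wild-type, with bars of 1 standard error, grouped by role and coloured red where the edgeR adjusted p is below 0.05. Each group but the transcription factors holds red points, and the 6 transcription factors lie between -0.16 and 0.15.

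The transcription factors were the most uniform group. None of the 6 passed, and their log2 fold changes ran from -0.16 to 0.15 with an SD of 0.13, against 0.61 for all 31 genes. Erg, an ETS factor that maintains endothelial identity, had 8.87, 7.76 and 8.09 CPM in knockout, against 8.18, 7.41 and 6.70 CPM in wild-type (log2 fold change 0.15, SE 0.120, edgeR adjusted p = 0.807). Fli1, its close relative, had 6.21, 7.23 and 6.59 CPM in knockout, against 7.25, 7.30 and 7.56 CPM in wild-type (log2 fold change -0.14, SE 0.112, edgeR adjusted p = 0.803). Ets1 averaged 39.7 ± 3.34 CPM in knockout and 38.7 ± 4.36 CPM in wild-type, and Elk3 19.1 ± 0.592 CPM in knockout and 17.8 ± 1.11 CPM in wild-type (SD, n = 3 each). The promoter of Elk3 is among the 5 with AGGAAG whose genes did not pass.

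Tal1 and Lyl1 are basic helix-loop-helix factors of blood and endothelium. Tal1 had 30.5, 37.0 and 45.7 CPM in knockout, against 41.4, 35.8 and 42.0 CPM in wild-type (log2 fold change -0.07, SE 0.139, edgeR adjusted p = 0.930). Lyl1 had 2.83, 4.28 and 4.34 CPM in knockout, against 4.15, 3.92 and 4.74 CPM in wild-type (log2 fold change -0.16, SE 0.193, edgeR adjusted p = 0.878). Knockout replicate 1 was the lowest library for both. The log2 fold changes of Tal1 and Lyl1 turned to 0.06 and 0.01 when that library was left out.

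Levels can be compared between genes only per length, here as mean CPM per kilobase of merged annotated exons. In knockout brains Itm2a was at 35.6, Cdh5 at 15.6, Podxl at 13.9, Cd93 at 11.2, Cd34 at 10.5 and Pecam1 at 10.4 CPM per kilobase. In wild-type brains the order opened with Itm2a at 43.1, Cdh5 at 13.7, Podxl at 13.5 and Tal1 at 9.07 CPM per kilobase, with Pecam1 at 5.19 and Cd34 at 4.79. Cdh5 and Podxl were within 1 SD of each other in wild-type, as were Cd34 and Pecam1 in knockout. Ly6c1 was lowest in both groups, at 0.266 in knockout and 0.400 CPM per kilobase in wild-type. The 9 genes that rose lay between 0.568 (Myct1) and 5.19 (Pecam1) CPM per kilobase in wild-type. Of the 31 genes, 7 share exonic bases with another annotated gene, at most 42.9% of the exonic length for Rasip1, 32.3% for Nos3, 12.8% for Egfl7 and 6.95% for Elk3. Among the 9 that rose, only Ecscr and Cd34 do, at 3.54% and 2.03%. The sources used here do not say whether counting used strand, so reads of overlapping genes cannot be told apart.

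To see which genes moved unlike the rest of the list, each gene's log2 CPM was centred on its mean over the 6 libraries and the median over the 31 genes was then subtracted in each library. That median was 0.10, 0.09 and 0.12 in knockout replicates 1, 2 and 3, against -0.21, -0.06 and -0.08 in wild-type replicates 1, 2 and 3. On this scale 11 genes lay higher in every knockout library than in every wild-type library, 10 lay lower and 10 overlapped. Over all genes tested, with the same median taken off, 1.45% lay higher without overlap and 43.4% lay lower, so a low place on this scale is not a result about these 10 genes. The 11 were the 9 that rose with Cd93 and Esam. The 10 were Ushbp1, Ly6c1, Itm2a, Nos3, Lyl1, Clec14a, Fli1, Arhgef15, Icam2 and Elk3. Adgrl4 differed from the list median by 1.43 and Ushbp1 by -1.04 on the log2 scale, knockout minus wild-type. Cdh5 differed from the list median by -0.04, so among the adhesion genes it lay nearest to the middle of the list. The subtraction places the median at zero in each library, so genes below it are low relative to the list and need not be low in CPM.

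**Figure D3:**
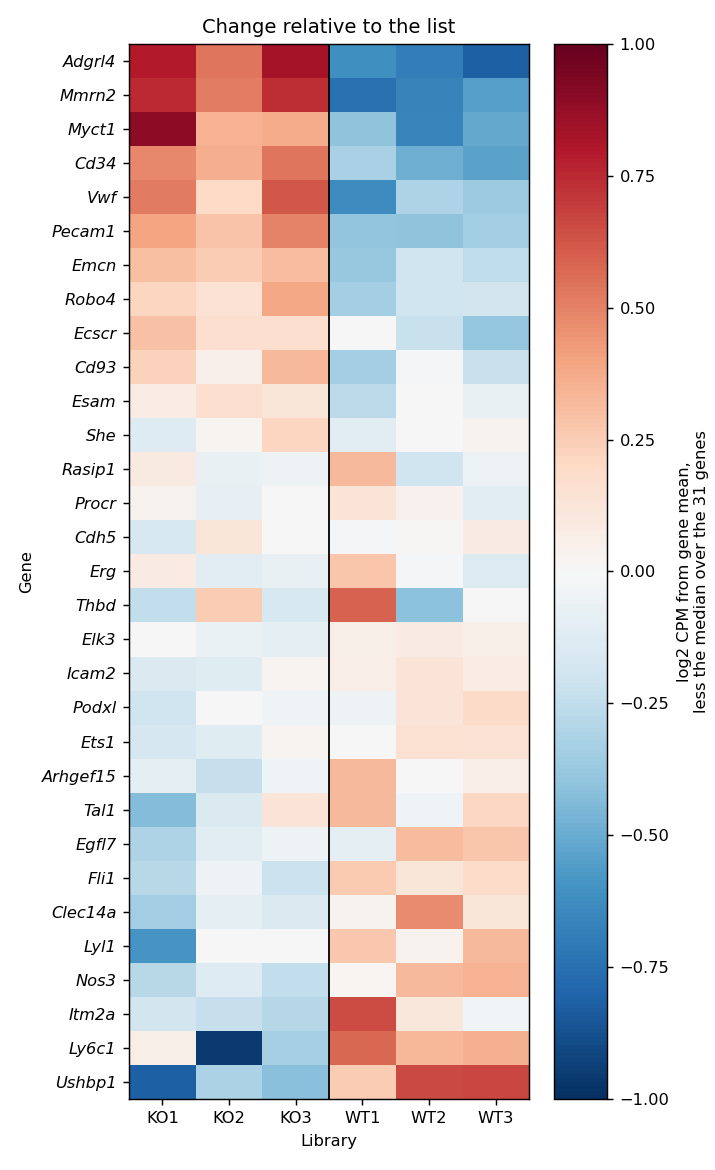
Log2 CPM of each gene, from its own mean and less the list median in that library, in the 3 knockout libraries (left) and the 3 wild-type libraries (right). The 11 genes at the top are red in knockout and blue or near white in wild-type, and Ushbp1 at the bottom shows the opposite.

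Variation between knockout libraries was shared among the genes that rose. Knockout replicate 2 was the lowest knockout library for 9 of the 9, and knockout replicate 3 the highest for 7. For the 22 genes that did not pass, knockout replicate 1 was the lowest library for 14 and knockout replicate 2 for 6. Over all genes tested, knockout replicate 1 was the lowest for 34.7% and knockout replicate 2 for 35.5%. Knockout replicate 2 was the knockout library with the high share of embryonic beta-globin, 23.6%, against 2.80% and 5.03% in the other two. In wild-type, replicate 1 was the lowest library for 5 of the 9, for 13 of the 22 and for 40.6% of all genes tested. The part of the globin difference in these values was not tested beyond the comparison that follows.

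Libraries alike in embryonic beta-globin share were also compared among themselves. Knockout replicates 1 and 3 were set against wild-type replicate 1, and knockout replicate 2 against wild-type replicates 2 and 3. In log2 CPM, 18 genes were higher in knockout in both sets, 7 were lower in both and 6 had opposite signs. The genes without overlap between the groups, 14 higher and 3 lower, have a fixed sign in both sets, and only their sizes can differ. They include the 9 that rose. The same split was not counted over all genes tested. Adgrl4 differed by 1.75 in the low-share set and 1.45 in the high-share set, Cd34 by 1.16 and 1.04, and Pecam1 by 1.17 and 0.82. Vwf differed by 1.53 and 0.70, and Cd93 by 0.94 and 0.34. Thbd had opposite signs at -0.47 and 0.63, as did Egfl7 at 0.25 and -0.24.

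The SD over the 31 genes was 0.67 in the low-share set and 0.57 in the high-share set. With a term for the sets in the edgeR fit, which was chosen after seeing the data, 9 genes rose and 0 fell, while over all genes 1.05% rose and 0.164% fell. Esam was added (adjusted p = 0.00939) and Vwf was lost (adjusted p = 0.132), with a log2 fold change of 1.10 as without the term. Ushbp1 had a log2 fold change of -0.68 in that fit (adjusted p = 0.0510).

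**Figure D4:**
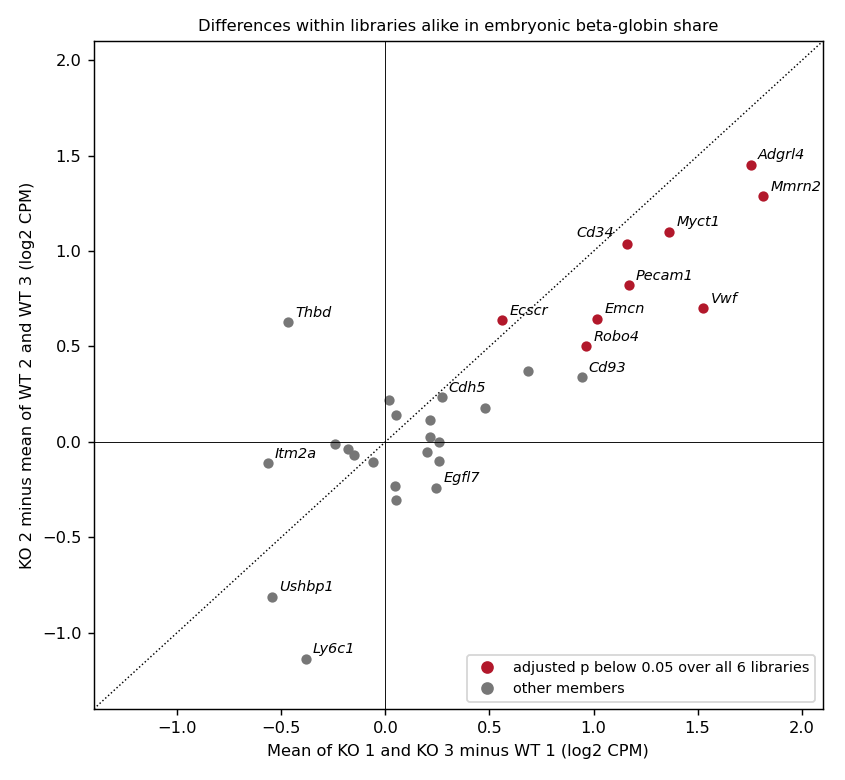
Log2 CPM differences, knockout minus wild-type, in the libraries with a low share of embryonic beta-globin (horizontal) and with a high share (vertical), for the 31 genes, with the 9 that rose in red. Of the red points, whose positive sign follows from groups that do not overlap, 8 lie below the dotted line of equal difference, and Thbd lies in the upper left.

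Other endothelial genes outside the list had a spread of similar size. Of 35 further genes of endothelium, 8 rose, 2 fell and 25 did not pass, with a median log2 fold change of 0.01 and an SD of 0.62. Flt1, a VEGF receptor, stood at 48.0 ± 6.74 CPM in knockout and 20.6 ± 1.33 CPM in wild-type, and Gimap6, a small GTPase gene, at 11.6 ± 0.784 CPM in knockout and 5.41 ± 0.721 CPM in wild-type (SD, n = 3 each). Cldn5, the main claudin of brain endothelium, had 44.7, 46.9 and 45.6 CPM in knockout, against 63.7, 67.8 and 63.3 CPM in wild-type. Its log2 fold change was -0.50 (SE 0.0585, adjusted p = 0.0084 in edgeR). Of 22 genes listed for endothelial tip cells, 8 rose and 0 fell, with a median log2 fold change of 0.52. That list also holds the ligand gene Vegfa, which is among the 8. Of 22 barrier genes, 0 rose and 2 fell, with a median of -0.05. These lists overlap one another, and each fraction is to be read beside the shares over all genes given above.

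Several of the 31 genes are also made by blood cells, so markers of those cells were measured beside them. Of 18 microglia and macrophage genes 0 passed in edgeR and 1 had an unadjusted p under 0.05, with a median log2 fold change of 0.15. Their summed level was 198.45 to 235 CPM in knockout libraries, above the 185 to 197.8 CPM of wild-type libraries. None of the 18 was at 0 in any library. Mrc1, a gene of macrophages at the borders of the brain, averaged 44.0 ± 4.64 CPM in knockout and 38.1 ± 3.62 CPM in wild-type (SD, n = 3 each). P2ry12, a microglial receptor gene named after its values were seen, averaged 3.80 ± 0.591 CPM in knockout and 4.57 ± 0.364 CPM in wild-type (SD, n = 3 each). It was the 1 gene of the 18 with a log2 fold change below 0, and the other 17 were above. Of 13 megakaryocyte and platelet genes, 10 were abundant enough to test and 1 passed, Itgb3, an integrin also made by endothelium, with a log2 fold change of 0.90 (SE 0.151, adjusted p = 0.0416 in edgeR). Of the 10, 2 had an unadjusted p under 0.05, Itgb3 and Clec1b. Clec1b averaged 2.01 ± 0.219 CPM in knockout and 0.872 ± 0.255 CPM in wild-type (SD, n = 3 each, edgeR adjusted p = 0.137). Without overlap between the groups, 5 of the 10 were higher in knockout and 1 was lower. Over all genes tested these shares were 7.84% and 6.58%. The 13 genes summed to 41.0 to 44.7 CPM in knockout and 36.7 to 41.5 CPM in wild-type. Erythroid genes summed to 46.3 to 102 CPM in knockout and 37.1 to 70.0 CPM in wild-type, with 0 of 8 tested genes past the threshold in edgeR and 1 at an unadjusted p under 0.05. Blood progenitor genes summed to 140.0 to 164 CPM in knockout and 145 to 175 CPM in wild-type, with the same counts, 0 and 1, of 8 tested genes. Kit alone averaged 82.5 ± 4.88 CPM in knockout and 86.5 ± 9.01 CPM in wild-type (SD, n = 3 each). That sum thus leans heavily on Kit and says little of the scarce genes in the list. The part of blood cells in the values of Vwf, Pecam1, Cd34, Tal1 and the other shared genes was not tested.

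Mural cell genes, which mark the pericytes around endothelium, had a median log2 fold change of -0.14 with 0 of 17 rising and 1 falling. Their summed level was 277 to 329 CPM in knockout, below the 367 to 386 CPM of wild-type. Much of that gap came from Rgs5, the 1 that fell. Its values were 36.8, 43.6 and 37.4 CPM in knockout, against 105, 96.6 and 84.3 CPM in wild-type. Of the 17 genes, 6 had a log2 fold change above 0 and 11 below. Epidermal genes summed to 24.4 to 370 CPM in knockout and 16.5 to 303 CPM in wild-type, and Hox genes to 0.591 to 2.55 CPM in knockout and 4.08 to 139 CPM in wild-type. Brain markers differed little, with a median log2 fold change of 0.10 over 16 genes, of which 1, Dlx2, a factor of interneuron precursors, rose.

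By the authors' deposited table, a DESeq2 comparison of the same libraries, 11 of the 31 genes rose and 1 fell at an adjusted p of 0.05. Over all 20564 genes of that comparison, 250 rose and 58 fell. The 11 were the 9 named above with Cd93 (authors' deposited adjusted p = 0.000173) and Esam (authors' deposited adjusted p = 0.0160). A DESeq2 Wald test run here on the filtered counts also gave 11 higher and 1 lower, while over all genes it called 1.32% higher and 0.307% lower. On simulated data 23.0% of the genes called by DESeq2 were false, against 5.68% for edgeR.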

How the data were processed

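The values are raw read counts per gene symbol from E14.5 whole brains, as deposited by the authors with no normalization. The submitters' processing notes name STAR 2.5.2a, featureCounts and DESeq2 1.12.4. A second table, the authors' own comparison, gives per the file headers a mean normalized signal, log2 fold changes and their errors, a Wald score and p-values. Neither the annotation release nor the use of strand is stated there.

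Samples were grouped by title. In edgeR 4.0.16, filterByExpr kept 19565 genes, TMM set the scale, and a robust quasi-likelihood fit gave tests that were adjusted by Benjamini-Hochberg, with calls at an FDR of 0.05. Standard errors are the log2 fold change over the square root of F. CPM uses TMM-scaled library sizes, and log2 CPM adds a prior count of 2. Coordinates and exon lengths come from GENCODE M21 on GRCm38, where all 31 symbols matched. The common coefficient of variation was 15.3%, and every pair of libraries differed by more than sampling noise.

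Members, comparison lists and alternatives were chosen with earlier results of these data known. Every member is accounted for. Full statistics are given for those past the threshold, those with a negative fold change and the 5 of lowest p among the rest. Of each comparison list at most the 4 genes of lowest p are named, except that P2ry12, Kit and Vegfa were named outside this rule. The fits were tested on simulated data. Of the genes called there, 5.68% were false with edgeR and 3.61% with limma-voom. With the replicate block 10.4% were false, and with DESeq2 23.0%. Of 50 genes changed 1.5-fold, edgeR recovered 66% and DESeq2 82%. Calls made only by DESeq2 or the block are thus less certain than those of edgeR. Alternatives used DESeq2 1.42.0, limma 3.58.1 and R 4.3.3.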

Additional observations from a re-analysis of the deposited data

How the results depend on the processing

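The log2 fold changes of Adgrl4, Mmrn2, Cd34 and Pecam1 passed in all 15 alternative fits, with edgeR, DESeq2 or limma-voom adjusted p of at most 0.0157. At an FDR of 0.01, 4 of the 31 genes rose, and the share over all genes was not counted at that threshold. DESeq2 size factors and limma-voom left the 9 calls as they were, and upper-quartile factors gave 8. Over all genes 0.618%, 0.613% and 0.613% rose in these fits, in that order. No low-count filter gave 211 genes over the whole table, the DESeq2 Wald test 318 and the replicate block 282, against 129, and each of the 3 had 1 member lower, Ushbp1. Over all genes, 21 of 34055 fell without the filter, 60 of 19551 with DESeq2 and 70 of 19565 with the block. The beta-globin term gave 237 genes over the whole table. Dropping the epidermal libraries gave 459 and 1 member lower. Dropping both Hox-expressing libraries left a lone wild-type library, whose spread was taken from the knockout ones, and gave 20 genes, 4 members higher and a median of 0.24. When any one library was dropped, the ranges were 36 to 388 genes, 4 to 10 members higher and 0 to 1 lower. The cause was not tested for any of these.

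It is unclear whether shared replicate numbers mean pairs. Deviations correlated at 0.587, 0.310 and 0.034 for numbers 1, 2 and 3, and the second knockout library was closest to the third wild-type library (0.478). With the replicate block, 10 members were higher and 1 lower, while of all 19565 genes 212 were higher and 70 lower.

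Signs turned for genes that had not passed. Without single libraries the log2 values ran from -0.23 to 0.058 for Tal1, -0.26 to 0.013 for Lyl1, -0.075 to 0.034 for Arhgef15, -0.092 to 0.34 for Thbd, -0.0091 to 0.11 for Icam2, -0.053 to 0.092 for Ets1 and -0.064 to 0.12 for Podxl. Without the epidermal libraries they were 0.089 for Tal1, 0.0099 for Arhgef15, -0.0082 for Ets1 and -0.0039 for Podxl. Without the Hox-expressing libraries they were 0.27 for Egfl7, 0.099 for Clec14a, 0.091 for Nos3, -0.012 for Rasip1 and -0.30 for Thbd. With the beta-globin term Egfl7 was 0.00067. Ly6c1, with 14 to 33 counts per library, is the gene whose precision depth limits most.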

Other observations

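ETS factors outside the list were measured as well. Of 13 further ETS factor genes 12 were abundant enough to test and 0 passed in edgeR, while 3 had an unadjusted p under 0.05. The 12 had a median log2 fold change of 0.11, and the 13 summed to 406 to 425 CPM in knockout libraries, above the 371 to 386 CPM of wild-type libraries. Ets2 averaged 38.0 ± 3.60 CPM in knockout and 27.8 ± 3.70 CPM in wild-type (SD, n = 3 each), a log2 fold change of 0.45 (SE 0.109, adjusted p = 0.203 in edgeR).

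Genes of arterial, venous and lymphatic endothelium did not share a direction. Of 12 arterial genes tested 0 passed in edgeR, with 3 at an unadjusted p under 0.05, and their median log2 fold change was -0.03. Gja4, a connexin of arteries, averaged 5.94 ± 1.39 CPM in knockout and 9.31 ± 0.612 CPM in wild-type (SD, n = 3 each). Of 10 venous genes 1 fell, Slc38a5, an amino acid transporter, and their median was 0.00. Of 6 lymphatic genes 1 rose, Flt4, a VEGF receptor that brain tip cells also make, at 13.1 ± 2.30 CPM in knockout and 6.56 ± 0.229 CPM in wild-type (SD, n = 3 each).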
